A study of Homo sapiens with 4 samples.

Results

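The genes examined here were 10 immediate early and AU-rich unstable mRNA genes, FOS, JUN, JUNB, JUND, EGR1, IER2, ATF3, MYC, DUSP1 and ID1, taken from a list of symbols. Each symbol matched 1 Ensembl gene ID among the 58243 in the files, and all 10 were above the study's detection threshold of 0.004 in every library. The data were RNA-seq values from 293T cells, a human embryonic kidney line, 48 h after transfection according to the sample labels. The cells had received a negative control RNA or a mimic of miR-1, miR-122 or miR-124, a mimic being a synthetic RNA duplex with the sequence of the mature miRNA on one strand. The study's methods give a shorter time between transfection and RNA isolation than the labels. Each condition was sequenced as 1 library, without replicates, and the 3 ratios of a gene share the same control RNA library. In RNA from whole cultures, fewer cells of a type and less RNA per cell cannot be told apart.

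Immediate early genes are transcribed within minutes of a growth factor or stress signal, without new protein synthesis, mainly through serum response factor with its ternary complex partners and through CREB. Their mRNAs decay fast. Many carry copies of the pentamer AUUUA in the 3′ UTR, to which proteins such as ZFP36 bind to recruit deadenylases. JUN, JUNB, JUND and FOS encode subunits of the AP-1 transcription factor, and ATF3 encodes a related bZIP protein. EGR1 encodes a zinc finger transcription factor, MYC a bHLH transcription factor of growth, and ID1 an inhibitor of bHLH proteins. DUSP1 encodes a nuclear phosphatase that inactivates MAP kinases, and IER2 a small nuclear protein.

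The value given for each gene is FPKM, the fragments per kilobase of gene length, scaled to library size. The numbers of reads behind the values were recovered, with divisors from 5887055 reads for miR-122 to 9452232 for miR-1. The ratio is the FPKM with a mimic divided by that with the control RNA. A 95% interval (exact, Clopper-Pearson) was computed for the mimic library's fraction of all reads of the gene in the pair, and was rescaled by the divisors. Such intervals hold counting error alone, and therefore apply to the libraries rather than to the conditions. All 8 genes chosen as 293T markers were above 0.004 in every library. KRT8, KRT18, VIM and NEFL were abundant among them, and PAX2, EYA1 and WT1 were at an FPKM of only 0.0192, 0.0559 and 0.372 with the control RNA. Of 6 markers of other cell types, ALB, PTPRC and MYH7 had at most 5 reads in any library, whereas COL1A1, SYP and GFAP were above 0.004 in all of them. With the control RNA these were at 3.27, 0.448 and 0.526, above PAX2, EYA1 and WT1, so the threshold does not separate the 2 lists.

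The sequences below show which letters of miR-1, miR-122 and the mRNAs are in question. Sites for miR-124 were not searched, so nothing is said of them. The mature miRNAs from RefSeq (GRCh38.p14) are given first, with the seed (bases 2 to 8) in capitals. The 2 seeds differ, so the miRNAs share no seed family.
miR-1-3p: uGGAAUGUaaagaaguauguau
miR-122-5p: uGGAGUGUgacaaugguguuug
The seed matches are ACATTCC for miR-1 and ACACTCC for miR-122, as DNA. In the 3′ UTRs of the canonical transcripts of GENCODE release 44, JUND alone among the 10 genes had a match of 7 letters to the miR-1 seed. No other of the 10 had a site of 7 letters when an A opposite base 1 was counted as a letter. A site of either kind was found in 23.3% of 11175 genes with a 3′ UTR and at least 200 reads in all. The site of JUND lies on chr19:18279816-18279837, minus strand, in its only exon. For miR-122, MYC had a site of 7 letters, counting an A opposite base 1 (24.3% of all genes had at least 1 site of 7 letters), and IER2 a match of 6 letters, on chr19:13154314-13154335, plus strand. Capitals mark the letters that match the seed.
JUND, miR-1 site: tttgctacgagtccACATTCCt
IER2, miR-122 site: tcggagaattccaggCACTCCc
The AU-rich stretches with the most AUUUA in 30 bases are shown for FOS, DUSP1 and ATF3, which are among the 4 genes with the longer word UUAUUUA, with the pentamers in capitals. MYC is the other gene with that word and is not shown. They lie in the 3′ UTR on chr14:75282057-75282086 (plus strand) for FOS, on chr5:172768641-172768670 (minus strand) for DUSP1, and on chr1:212620703-212620732 (plus strand) for ATF3. The single pentamer of JUND, on chr19:18279998-18280027 (minus strand), is given for contrast.
FOS: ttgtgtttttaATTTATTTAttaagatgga
DUSP1: ggctggtccttATTTATTTAacttcacccg
ATF3: gaaaatattacttATTTAtcctagtattcc
JUND: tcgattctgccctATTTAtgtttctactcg

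The 10 mRNAs spanned a wide range of levels in the control RNA library, from an FPKM of 1.18 for FOS to 119 for JUND. JUN was at 109, ID1 at 91.2, DUSP1 at 52.5, JUNB at 31.1, IER2 at 14.9, MYC at 7.65, EGR1 at 2.05 and ATF3 at 1.43. The 2 AP-1 subunits JUND and JUN were thus abundant, and the inducible FOS and EGR1 were near the bottom. For most of the 10, JUN and MYC excepted, the length behind an FPKM value was close to the gene's whole span with its introns, and for ATF3 it was 55443 bases. Per kilobase of the canonical transcript, scaled to library size as before, ATF3 was at 40.9, rank 5 of the 10 in place of 9. This scale takes all reads as exonic, which was not checked. The value of ATF3 is too high if reads from its introns were counted. On that scale JUN was at 118, JUND at 115 and ID1 at 114, so the order of these 3 depends on the length that is used. The level of JUN on this scale is itself uncertain, since a longer length also gave whole reads and would put it at 236. FOS and EGR1 were the lowest on the transcript scale as well, at 1.94 and 2.5.

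**Figure D1:**
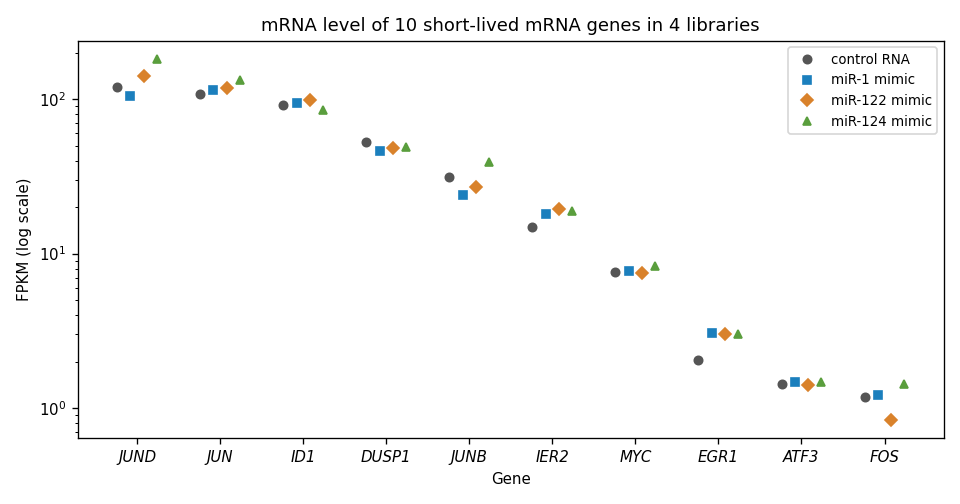
FPKM (log scale) of the 10 genes, ordered by the control RNA library, with 1 point for each of the 4 libraries. JUND and JUNB spread more than their neighbours in level, with JUND from 105 to 183, while the points of ATF3 lie between 1.41 and 1.47.

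Differences between the 4 libraries were small for most of these mRNAs. The highest FPKM was at least 1.5 times the lowest for 3 of the 10, JUND (1.75), FOS (1.71) and JUNB (1.63), and it was under 1.2 times the lowest for ATF3, MYC, DUSP1 and ID1. Against the control RNA, none of the 10 was at least 1.5-fold higher or lower with miR-1 or miR-122. With miR-124, 1 was at least 1.5-fold higher (JUND) and 0 were lower. Among all genes above 0.004 in both libraries, 8.37% were at least 1.5-fold higher and 13.6% lower with miR-1, 10.1% and 11.5% with miR-122, and 10.7% and 11.7% with miR-124. Most of those had few reads. Among the genes with at least 200 reads over the 4 libraries, as 9 of the 10 had, the shares higher and lower were 1.04% and 5.02%, 1.42% and 2.48%, and 1.94% and 3.23%, respectively.

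Counting intervals above 1 were found for 3 of the 10 with miR-1 (JUN, EGR1, IER2), 4 with miR-122 (the same 3 and JUND) and 5 with miR-124 (the same 4 and JUNB). Intervals below 1 were found for 3 with miR-1 (JUNB, JUND, DUSP1) and for 0 with either of the other mimics. Among all detected genes, intervals above 1 made up 9.94% and 9.01% with miR-1 and miR-122, and 10.9% with miR-124, and intervals below 1 made up 16.6%, 11.1% and 14.4%. Among those with at least 200 reads the shares above 1 were 15.6%, 13.3% and 16.5%, and those below 1 were 24.8%, 16.6% and 22.1%, in the same order. The median log2 ratio of the 10 was 0.05 in the comparison with miR-1 and likewise 0.05 with miR-122, and it was 0.29 for miR-124, beside -0.05, -0.02 and -0.05 for all genes with at least 200 reads. Members of the list are different genes and not replicates, so these counts and medians describe the libraries.

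**Figure D2:**
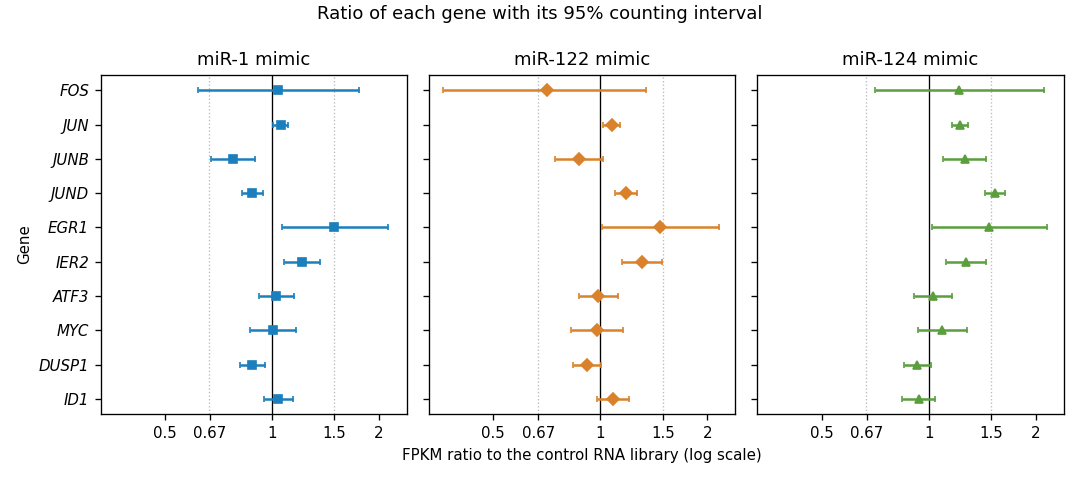
Mimic over control RNA ratio of the 10 genes (log scale) with its 95% counting interval, 1 panel per mimic. Dotted lines mark 1.5-fold. EGR1 and IER2 lie to the right of 1 in each panel, JUND moves from 0.880 with miR-1 to 1.54 with miR-124, and the intervals of FOS are wide.

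JUND, the AP-1 subunit that is least dependent on stimulation, differed most between the libraries. Its FPKM was 119 with the control RNA, 105 and 141 with miR-1 and miR-122, and 183 with miR-124, from 1468, 1844, 1541 and 2201 reads. The miR-1 library was the lowest of the 4 and the miR-124 library the highest. The ratio to the control RNA was 0.880 (interval 0.822 to 0.943) with miR-1, 1.18 (1.10 to 1.27) with miR-122 and 1.54 (1.44 to 1.64) with miR-124. Set directly against the miR-1 library, the miR-124 library was at 1.75 (1.64 to 1.86) and the miR-122 library at 1.34 (1.25 to 1.44). JUND is the gene shown above with a 7-letter match to the miR-1 seed, and in the miR-1 library it was at 0.648 of the mean of the other 2 mimics. The part of the site in this difference was not tested. The difference is as measured. After subtraction of a trend with GC content and length, described below, the ratios of JUND to the control RNA were 0.850, 1.05 and 1.13 with miR-1, miR-122 and miR-124.

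JUNB, the subunit that can oppose JUN at AP-1 sites, was ordered in the same way by miR-1 and miR-124. Its FPKM was 31.1 with the control RNA, 24.1 and 27.2 with miR-1 and miR-122, and 39.3 with miR-124. The ratio was 0.776 (0.673 to 0.894) with miR-1, 0.873 (0.747 to 1.02) with miR-122 and 1.26 (1.10 to 1.45) with miR-124. Between the miR-124 and miR-1 libraries it was 1.63 (1.42 to 1.86). JUNB had no 6-letter match to the miR-1 seed in its 3′ UTR. The whole of JUNB lies within HOOK2 on the opposite strand in GENCODE release 44, and the sources used here do not say whether counting used the strand, so reads of the 2 genes cannot be told apart.

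JUN, which encodes the strongest transactivator of the 3, was less variable. It had an FPKM of 109 with the control RNA, 115 and 117 with miR-1 and miR-122, and 133 with miR-124. The ratio was 1.06 (1.01 to 1.11), 1.08 (1.02 to 1.14) and 1.23 (1.16 to 1.29), respectively. All the mimic libraries were above the control RNA library, and the miR-124 library was above the others. The length of JUN was not unique, since its reads in the 4 libraries were whole for 3539 bases and for 7078 bases. The shorter length, with 2550 reads in the control RNA library, was taken because it is within 10% of the canonical transcript, a single exon, and the longer one would give an interval of 1.18 to 1.27 with miR-124.

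FOS, the partner that AP-1 needs for its most stable dimers, was too rare to compare. There were 27 reads with the control RNA, 40 and 17 with miR-1 and miR-122, and 32 with miR-124, or FPKM values of 1.18, 1.22, 0.836 and 1.43. The ratios were 1.04 (0.622 to 1.76), 0.708 (0.362 to 1.35) and 1.21 (0.705 to 2.11). The interval with miR-1 holds 1.5-fold in both directions, that with miR-122 a decrease of that size and that with miR-124 an increase, so such differences in FOS were not detectable at this depth.

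EGR1 had the highest ratio of the 10 with miR-1 and with miR-122, and the second highest with miR-124. Its FPKM was 2.05 with the control RNA against 3.07 and 3.02 with miR-1 and miR-122, and 3.03 with miR-124. The 3 mimic libraries lay close together and the control RNA library below them. The ratio was 1.496 (1.07 to 2.12) with miR-1, just short of 1.5-fold, 1.47 (1.01 to 2.15) with miR-122 and 1.48 (1.02 to 2.15) with miR-124. These rest on 52 reads with the control RNA and 111, 68 and 75 with the mimics, and the lower bounds are close to 1. Relative to the other 2 mimics averaged, EGR1 was at 1.01 for miR-1 and 0.990 and 0.996 for the miR-122 and miR-124 mimics. A difference common to the mimics and one peculiar to the control RNA library cannot be told apart.

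IER2 was likewise lowest with the control RNA, and from more reads. Its FPKM was 14.9 with the control RNA, 18.1 and 19.6 with miR-1 and miR-122, and 19.0 with miR-124. The 3 mimic libraries lay above it, with ratios of 1.22 (1.08 to 1.37), 1.31 (1.15 to 1.49) and 1.27 (1.12 to 1.45). None of the 3 pairs of mimic libraries had an interval apart from 1, the widest difference being 1.08 (0.964 to 1.21) between miR-122 and miR-1. A pair of long noncoding RNA genes overlap IER2 on the opposite strand.

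ATF3, which stress pathways induce, was the most even of the 10. Its FPKM was 1.43 with the control RNA, 1.47 and 1.41 with miR-1 and miR-122, and 1.47 with miR-124, from 461 to 771 reads. The SD over the 4 libraries was 2.10% of the mean. The ratios of 1.03 (0.920 to 1.15), 0.988 (0.870 to 1.12) and 1.03 (0.911 to 1.16) leave out a change of 1.2-fold in these libraries in either direction.

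MYC was nearly as even, with FPKM values of 7.65 with the control RNA, 7.71 and 7.50 with miR-1 and miR-122, and 8.35 with miR-124. Its ratios were 1.01 (0.868 to 1.17), 0.981 (0.829 to 1.16) and 1.09 (0.931 to 1.28). The 4 libraries could not be separated by their counting intervals. CASC11 overlaps MYC on the opposite strand.

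DUSP1 was lower with each mimic than with the control RNA. Its FPKM was 52.5 with the control RNA, 46.2 and 48.1 with miR-1 and miR-122, and 48.7 with miR-124. The ratio was 0.880 (0.812 to 0.954) with miR-1, 0.918 (0.839 to 1.00) with miR-122 and 0.929 (0.851 to 1.01) with miR-124. As measured, only the interval with miR-1 was thus below 1, that with miR-122 ending just above it. A long noncoding RNA gene on the opposite strand covers all of DUSP1.

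ID1 was at 91.2 with the control RNA, 95.1 and 98.9 with miR-1 and miR-122, and 85.5 with miR-124. Each interval against the control RNA held 1, with ratios of 1.04 (0.949 to 1.15), 1.08 (0.977 to 1.2) and 0.938 (0.844 to 1.04). Between the miR-124 and miR-122 libraries the ratio was 0.865 (0.778 to 0.962), so ID1 was lowest where the 3 JUN genes were highest.

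The base composition of a transcript moved with its ratio in all 3 comparisons. Across genes with at least 200 reads, Pearson's r between GC content of the canonical transcript and log2 ratio was 0.62 with miR-124 (12638 genes), against 0.21 with miR-1 (12642 genes) and 0.33 with miR-122 (12640 genes). The points share their libraries, and genes are not independent replicates. With miR-124 the median log2 ratio was -0.26 in the fifth of genes with the lowest GC content and 0.26 in the fifth with the highest. Of the 10 genes, JUND had a GC content of 69.9%, higher than that of 99.5% of these genes, JUNB had 64.9% and IER2 63.0%. JUN was at 56.1%, EGR1 at 55.3% and MYC at 48.8%.

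After a cubic trend with GC content and transcript length had been subtracted, the ratio with miR-124 was 1.13 for JUND in place of 1.54, 1.01 for JUNB in place of 1.26, and 1.06 for IER2 in place of 1.27. It was 1.16 for JUN and 1.42 for EGR1. With the bounds shifted along with the ratio, the intervals of JUN and JUND with miR-124 stayed above 1. Those of EGR1, JUNB and IER2 then held 1, and those of DUSP1 and ID1 lay below 1. With miR-122, only the interval of IER2 stayed above 1, those of JUN, JUND and EGR1 held 1, and those of JUNB and DUSP1 lay below. The median log2 ratio of the 10 with miR-124 was 0.13 after the subtraction. With miR-1 the trend made less difference, with adjusted ratios of 0.734 for JUNB, 0.850 for JUND, 0.858 for DUSP1 and 1.53 for EGR1. The part of GC content in the values of JUND, JUNB and IER2 was not tested.

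AU-rich elements were unevenly distributed among the 10. The AU content of the 3′ UTR ran from 38.4% for JUND to 61.3% for FOS and DUSP1, against a median of 57.7% over all genes with at least 200 reads. It was below that median for JUND, IER2, JUNB, ID1, ATF3 and JUN, and above it for FOS, DUSP1, MYC and EGR1. AUUUA, searched on the sense strand with overlaps allowed, occurred 26 times in the 3′ UTRs of 9 of them, and in 74.6% of all genes with at least 200 reads. FOS had 5 copies (6.20 per kb of 3′ UTR), DUSP1 4 (6.01), JUNB 2 (4.0), MYC 6 (3.01), ATF3 3 (2.46), ID1 1 (2.4) and JUN 3 (2.34), against a median of 1.74 per kb over all genes. JUND with 1 copy (1.34) and EGR1 with 1 (0.818) were below that median, and IER2 had none. The longer word UUAUUUA was found 4 times in DUSP1 and once each in FOS, ATF3 and MYC, as in 34.3% of all genes. The 3 genes with the fewest pentamers per kb, IER2, EGR1 and JUND, had intervals above 1 with miR-122 and miR-124, whereas with miR-1 JUND was at 0.880. JUN, above the median at 2.34 per kb, had intervals above 1 with each mimic too, and JUNB, at 4.0, with miR-124. FOS, with the most per kb, was at 1.04 with miR-1 and 1.21 with miR-124, and DUSP1, with the most UUAUUUA, was below 1 with each mimic. These ratios and intervals are as measured. After the trend with GC content and length had been subtracted, fewer of the intervals with miR-122 and miR-124 stayed above 1. Those that did were IER2 with miR-122, and JUN and JUND with miR-124.

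The same word was then counted across all 11175 genes. With miR-124 the median log2 ratio was 0.02 for 7342 genes without UUAUUUA, -0.15 for 2237 genes with 1, -0.21 for 849 genes with 2, and -0.25 for 747 genes with 3 or more. With miR-1 these medians were -0.01, -0.11, -0.16 and -0.23, and with miR-122 they were 0.02, -0.08, -0.12 and -0.16. Median GC content fell in the same order, from 52.4% to 39.9%, and median 3′ UTR length rose from 931 to 4859 bases. After the trend with GC content and length had been subtracted, the 4 medians of each mimic lay within 0.03 of 0. Little of the fall with the number of words was thus left. The number of AU-rich words changed together with base composition and length, and the part of each in these ratios was not tested.

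The promoters differed as well. In the window from 250 bases before to 50 bases after the start of transcription (RefSeq, GRCh38.p14, both strands), the CArG box to which serum response factor binds was found in EGR1 alone among the 10 promoter windows of 9 of the genes, and in 1.29% of 35116 promoters. The full CRE, TGACGTCA, was found in JUND and DUSP1 (1.85% of all promoters), and TGANTCA, the AP-1 word, in none (7.71%). The shorter TGACG, which is part of the CRE, was in 7 of the 10 windows (24.6%). These are matches of letters in a short window, and neither sequence outside it nor the promoter of MYC was searched. The EGR1 boxes lie on chr5:138465364-138465393 and chr5:138465386-138465415 (plus strand), the CRE of JUND on chr19:18281804-18281833 (minus strand) and that of DUSP1 on chr5:172771302-172771331 (minus strand). Capitals mark the motif.
EGR1, first CArG box: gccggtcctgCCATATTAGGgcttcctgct
EGR1, second CArG box: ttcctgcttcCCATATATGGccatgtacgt
JUND, CRE: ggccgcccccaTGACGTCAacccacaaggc
DUSP1, CRE: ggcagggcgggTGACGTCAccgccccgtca
EGR1 with 2 CArG boxes had intervals above 1 with each mimic, and so had JUN and IER2, without one in the window. Of the 2 genes with a CRE, JUND and DUSP1 lay on opposite sides of the control RNA with miR-122 and miR-124.

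Other genes of the pathway were taken from 8 lists with 98 genes in all. Of the 95 above 0.004 in both libraries, 2 were at least 1.5-fold higher with miR-1 and 6 lower, and the median log2 ratio was -0.13. With miR-122 these were 3 and 2 of 94, with a median of -0.02, and with miR-124 4 and 3 of 95, with a median of -0.02. Intervals above 1 were found for 10, 14 and 22 genes, respectively, and intervals below 1 for 34, 16 and 17. Of all detected genes, 9.94%, 9.01% and 10.9% had intervals above 1, and 16.6%, 11.1% and 14.4% below. Among genes with at least 200 reads these shares were 15.6%, 13.3% and 16.5%, and 24.8%, 16.6% and 22.1%. The counts for single lists below are to be set beside the same shares, and those past 1.5-fold beside the shares given earlier. After the trend with GC content and length had been subtracted, intervals above 1 were left for 13 genes with miR-1, 10 with miR-122 and 16 in the case of miR-124, and intervals below 1 for 21, 9 and 6. Of the 22 genes above and 17 below with miR-124 as measured, 13 and 5 were on the same side after the subtraction. The genes past 1.5-fold with miR-1 were DUSP2 and DUSP6 (higher) and NR4A3, VEGFA, CXCL8, DUSP4, SPRED1 and MGA (lower). With miR-122 they were FOSB, MYCN and SPRY4 (higher) and EGR3 and DUSP4 (lower), and with miR-124 IER5L, ARC, KLF2 and DUSP6 (higher) and NR4A3, SPRY4 and ELK3 (lower). Several of these rest on few reads. The intervals of DUSP6 with miR-1 and of FOSB, SPRY4 and EGR3 with miR-122 held 1. So did those of KLF2, DUSP6, NR4A3 and SPRY4 with miR-124. In the control RNA library DUSP6 had 1 read, EGR3 6, SPRY4 7, NR4A3 16, KLF2 21 and FOSB 27. The measured median of the wider pathway with miR-124 was thus below that of the 10 genes, 0.29. After the subtraction the 2 medians were 0.01 and 0.13, and that of the list of AP-1 and ATF partners was 0.13, as for the 10.

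Among the other AP-1 and ATF partners, MAFK, a small Maf protein, had a ratio of 1.27 (1.14 to 1.42) with miR-1, 1.15 (1.02 to 1.31) with miR-122 and 1.43 (1.28 to 1.61) with miR-124. By the interval bound nearest to 1, the genes farthest below the control RNA were ATF2 and ATF5 with miR-1, at 0.701 (0.575 to 0.854) and 0.739 (0.621 to 0.881), and with miR-122 MAFG, at 0.791 (0.711 to 0.880), and the FOS relative FOSL2, at 0.816 (0.691 to 0.963). ATF4, which drives the amino acid response, was at 1.07 (1.02 to 1.13) with miR-122 and 1.12 (1.06 to 1.17) with miR-124. Of the 12 genes detected, 1 had an interval above 1 and 5 below with miR-1, 2 and 4 with miR-122, and 3 and 0 with miR-124. After the subtraction, the intervals of MAFK, ATF4 and FOSL2 with miR-122 held 1.

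Among 11 detected immediate early transcription factors of other families, 1 had an interval above 1 and 3 below with miR-1, 0 and 1 with miR-122, and 1 and 1 with miR-124. NR4A1, an orphan nuclear receptor, was at 1.26 (1.09 to 1.45) with miR-1 and 1.49 (1.29 to 1.73) with miR-124. KLF10 was at 0.830 (0.711 to 0.968) with miR-122 and 0.854 (0.736 to 0.991) with miR-124. With miR-1, BHLHE40 was at 0.822 (0.707 to 0.956) and NR4A3 at 0.307 (0.107 to 0.788) from 16 reads with the control RNA and 7 with the mimic. The intervals of KLF10 held 1 after the subtraction. EGR2 and EGR4 were not above 0.004 in the control RNA library.

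Of the 22 other short-lived mRNAs, 2 had an interval above 1 and 7 below with miR-1, 3 and 3 with miR-122, and 6 and 2 with miR-124. PPP1R15A, whose product reverses eIF2α phosphorylation, was above the control RNA with each mimic, as IER2 was, with ratios of 1.27 (1.15 to 1.41), 1.23 (1.10 to 1.37) and 1.24 (1.11 to 1.38). With miR-1, CCN1 was at 1.25 (1.15 to 1.36), VEGFA at 0.665 (0.581 to 0.761), and the chemokine gene CXCL8 at 0.462 (0.279 to 0.755) from 44 reads with the control RNA and 29 with the mimic. VEGFA was also low with miR-122, at 0.785 (0.677 to 0.910), beside PIM1 at 0.836 (0.721 to 0.967), and IER5L was at 1.33 (1.07 to 1.64). With miR-124, IER5L reached 1.78 (1.46 to 2.16) and ARC 1.83 (1.30 to 2.59), whereas the apoptosis inhibitor MCL1 was at 0.817 (0.748 to 0.892) and BTG2 at 0.827 (0.717 to 0.953). The intervals of IER5L with miR-122 and PPP1R15A with miR-124 held 1 after the subtraction, and the ratio of IER5L with miR-124 was then 1.44.

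Of the MAP kinase phosphatases and feedback inhibitors, DUSP4 was low with miR-1 at 0.663 (0.514 to 0.855) and with miR-122 at 0.528 (0.383 to 0.721). With miR-1, SPRED1 was at 0.519 (0.362 to 0.740) and DUSP2 at 1.57 (1.15 to 2.16), and with miR-124 DUSP8 was at 1.45 (1.21 to 1.74), or 1.19 after the subtraction, with an interval that held 1. DUSP1 was thus not the only member of its family below the control RNA with miR-1, and DUSP2 was on the other side. Intervals above and below 1 were found for 1 and 2 of 10 detected genes with miR-1, 0 and 1 of 9 with miR-122, and 1 and 0 of 10 with miR-124.

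ID3, the nearest relative of ID1 in the list, was above the control RNA with each mimic, at 1.2 (1.13 to 1.28), 1.19 (1.10 to 1.27) and 1.11 (1.03 to 1.19), whereas each interval of ID1 held 1. ID4 was at 0.871 (0.808 to 0.940) with miR-1 and 1.12 (1.04 to 1.21) with miR-124. TCF3, an E protein that ID proteins bind, was at 1.29 (1.19 to 1.39), 1.30 (1.2 to 1.42) and 1.40 (1.29 to 1.51). The E protein gene TCF4 was at 0.688 (0.568 to 0.834) with miR-1 and 0.770 (0.625 to 0.945) with miR-124, where TCF12 was at 0.741 (0.621 to 0.883). After the subtraction the ratios with miR-124 were 0.952 for TCF4, 0.888 for TCF12 and 1.00 for ID3, each with an interval that held 1, as did those of TCF4 and ID4 with miR-1, while TCF3 was at 1.21. Of these 6 genes, 2 had an interval above 1 and 3 below with miR-1, 3 and 0 with miR-122, and 3 and 2 with miR-124.

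In the MYC network, MAX, the obligate partner of MYC, was at 0.681 (0.594 to 0.781) with miR-1 while MYC itself was at 1.01. MGA, a MAX partner that represses transcription, was low in each comparison, at 0.639 (0.542 to 0.754), 0.678 (0.562 to 0.816) and 0.718 (0.600 to 0.857). MXD3 was at 1.22 (1.13 to 1.32) and MLX at 1.17 (1.05 to 1.30) with miR-1. With miR-122, MYCN was at 1.51 (1.11 to 2.06) and MLX at 1.15 (1.02 to 1.29). With miR-124, MXD4 was at 1.23 (1.12 to 1.34), MNT at 1.23 (1.06 to 1.44) and MXI1 at 0.803 (0.687 to 0.938). Intervals above and below 1 were found for 2 and 4 of the 10 genes with miR-1, 3 and 1 with miR-122, and 4 and 2 with miR-124. None of those 6 with miR-124 was apart from 1 on the same side after the subtraction, where MXD4 was at 1.04, MNT at 1.10 and MGA at 0.888.

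Upstream of the immediate early genes, SRF, which encodes serum response factor, was at 1.21 (1.09 to 1.34) with miR-1. CREB1 was at 0.706 (0.593 to 0.840) with miR-1, where ELK3, a ternary complex factor, was at 0.734 (0.592 to 0.910), and ELK3 was at 0.653 (0.509 to 0.835) with miR-124. The kinase genes MAPK3 and MAP2K2 were at 1.12 (1.02 to 1.23) and 1.12 (1.03 to 1.22) with miR-122 and at 1.23 (1.12 to 1.35) and 1.23 (1.13 to 1.33) with miR-124, while MAPK14 was at 0.852 (0.742 to 0.978) and 0.738 (0.641 to 0.849). RPS6KA3 was at 0.798 (0.676 to 0.942) with miR-122. After the subtraction, MAPK3 and MAP2K2 were at 1.03 and 1.00 with miR-122 and at 1.05 and 0.972 with miR-124, each with an interval that held 1. The intervals of CREB1 and ELK3 with miR-1 and of MAPK14 and RPS6KA3 with miR-122 also held 1, whereas ELK3 at 0.749 and MAPK14 at 0.820 stayed below with miR-124. Of these 14 genes, 1 had an interval above 1 and 5 below with miR-1, 2 and 5 with miR-122, and 3 and 7 with miR-124.

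Of the 10 genes for proteins that bind AU-rich or related elements, ZFP36L2 was at 0.693 (0.615 to 0.781) with miR-1, and ZFP36L1 at 0.746 (0.625 to 0.890) with miR-1 and 0.786 (0.644 to 0.958) with miR-122. HNRNPD, which encodes AUF1, was at 1.09 (1.03 to 1.14) with miR-122. With miR-124, KHSRP was at 1.16 (1.11 to 1.22) and TIA1 at 0.755 (0.643 to 0.884), the latter at 0.912 after the subtraction, with an interval that held 1. Intervals above and below 1 were found for 0 and 5 genes with miR-1, 1 and 1 with miR-122, and 1 and 3 with miR-124.

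The genes outside the 10 whose 3 log2 ratios lay closest to the medians of the 10, among 12627 genes with at least 200 reads, were TRNP1, ZNF71, GHDC, VARS1 and PDLIM7, at Euclidean distances of 0.0171 to 0.0313. The likeness rests on 3 ratios that share the control RNA library.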

How the data were processed

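The authors trimmed the single-end reads, aligned them to GRCh38 with HISAT2 2.0.0 after base calling with CASAVA 1.8, and deposited the result as FPKM, with 1 value for an Ensembl gene in each file. Tool versions are from the submitters' processing notes. The counting program, the annotation and the strand setting are not given in the sources used here. Of the 58243 genes, 57532 were matched to GENCODE release 44, whose assembly is also GRCh38. The value of 1 read in short genes gave each library's divisor (control RNA 6624306, miR-1 9452232, miR-122 5887055 and miR-124 6465436 reads). A gene's length was the annotated distance from start to end where this gave whole reads (within 0.002), otherwise the smallest whole number that did. If that number was more than 10% from both this distance and the canonical transcript, the fitting length nearest to the distance was taken when within 10% of it. Whole reads were found for 98.8% of 32010 matched genes above 0 in any library. The reads served only for counting intervals and filters, and no p-value was computed.

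Ratios were taken without a pseudocount. The 10 genes and the lists of other genes were chosen with earlier results of these data known. All 10 were named. From each other list, the 2 genes farthest above and the 2 farthest below the control RNA, by the bound nearest to 1, were named among those whose interval did not hold 1, and other genes were named after their values were seen. The values of 1 gene that this rule selects are not reported here. In data simulated for miR-124 against the control RNA, 95.8% of the intervals of 12144 genes held the true ratio, and the reads of 100% of 1000 genes came back exactly. The simulated reads varied by counting error alone, as the intervals assume, so the first share says nothing of other variation. The simulated lengths lay close to the annotated distance, unlike those used for JUN and MYC, so the second does not cover these 2 genes. Computation was in Python 3.11.15 with pandas 2.3.3, scipy 1.17.1 and numpy 2.4.6, and plots were made in matplotlib 3.10.9.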

Additional observations from a re-analysis of the deposited data

How the results depend on the processing

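No paired analysis was possible because there is a single library per condition, and for the same reason no library was left out. All alternatives were set with earlier results of these data known. The number of the 10 genes at least 1.5-fold higher with miR-124 was 1 as measured (JUND), 2 after centring on the median of all genes (JUND and EGR1), 0 after scaling by the upper quartile, and 0 after adjustment for transcript GC content and length. With miR-1 it was 0 as measured and 1 (EGR1) after centring and after the adjustment. Against the other 2 mimics averaged, 1 gene was at least 1.5-fold lower with miR-1 (JUND) and 1 with miR-122 (FOS), against 0 as measured. The values set against that reference were not adjusted for GC content and length. Intervals below 1 were found for 1 gene with miR-122 and 1 with miR-124 after scaling by the upper quartile, and for 2 with each after the adjustment, against 0 as measured. Intervals above 1 went from 4 to 1 with miR-122 and from 5 to 2 with miR-124 after the adjustment. Among the other pathway genes, in a comparison added after the data had been seen, the same adjustment took the intervals below 1 from 34 to 21 with miR-1, from 16 to 9 with miR-122 and from 17 to 6 with miR-124. Intervals were not recomputed for the pseudocounts or that reference. The median log2 ratio with miR-124 was 0.29 as measured, 0.22 with a pseudocount of 1, 0.09 with that reference and 0.13 after the adjustment. Of 237 values of single genes under the alternatives, 216 stayed within their counting interval and 21 left it. The first number includes values under the filters on mean FPKM and on reads, which leave a ratio unchanged and so could not leave the interval. Against the other 2 mimics averaged, 4, 5 and 5 values left it with miR-1, miR-122 and miR-124. After the adjustment these numbers were 0, 1 and 5.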
